A study of Mus musculus with 16 samples.

Results

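The miRNAs of the H19/Igf2 imprinted locus have 4 rows on the array, and they were taken by name: mmu-miR-675-3p, mmu-miR-675-5p, mmu-miR-483 and mmu-miR-483*. They are 4 of the 611 mouse miRNAs named on the array. Their signals were read from 16 Agilent arrays, each hybridised with 1 labelled sample of RNA from mouse embryonic fibroblasts (MEFs) cultured from mid-gestation embryos of a mixed FVB/n and C57Bl/6 strain. The 8 groups were Ercc1-/- MEFs at passage 7 (P7) in 20% O2, at passage 3 (P3) in 20% O2, at P7 in 3% O2 and at P3 in 3% O2, and WT MEFs at P7 in 20% O2, at P3 in 20% O2, at P7 in 3% O2 and at P3 in 3% O2, with 2 arrays in each. Ercc1-/- cells lack a subunit of the XPF-ERCC1 endonuclease, which acts in nucleotide excision repair and crosslink repair, and the study compared them with WT cells to look for miRNAs tied to senescence. The mutation is carried by every cell of the embryo, so that it was present before culture began. The study's methods give 2 independent cell lines for each sample, the labels do not say which array holds which line, and p-values measure the spread between these arrays.

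MiRNAs are short RNAs that pair with target mRNAs mainly through the seed, the bases near their 5′ end. H19 is a long non-coding RNA expressed from the maternal copy of its locus, abundant in the embryo and in placenta, and miR-675 is cut from an exon of it. Igf2 encodes insulin-like growth factor 2, a growth factor of the embryo expressed from the paternal copy, and miR-483 lies in an intron of it. Both genes share an imprinting control region and enhancers. In the RefSeq annotation of mouse build GRCm38.p6, H19 spans 142575530 to 142578146 on chromosome 7 and holds Mir675 at 142577064 to 142577147, while Igf2 spans 142650768 to 142666816 and holds Mir483 at 142654924 to 142654996. All lie on the minus strand, with 77.8 kb between the hairpins.

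The 4 mature sequences are shown because each member is identified by its own seed, in capitals (bases 2 to 8, 5′ to 3′, RefSeq, GRCm38.p6). The array uses older names. MiR-483 is taken here as miR-483-3p and miR-483* as miR-483-5p, which the files do not state.
mmu-miR-675-3p: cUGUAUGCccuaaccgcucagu
mmu-miR-675-5p: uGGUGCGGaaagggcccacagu
mmu-miR-483 (miR-483-3p): uCACUCCUccccucccgucuu
mmu-miR-483* (miR-483-5p): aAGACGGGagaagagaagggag
No member shared its seed with another, and none of the other mature miRNAs among the 1679 in the RefSeq table had any of these seeds. The base composition differs widely: miR-483 has 12 C among 21 bases and 2 purines, and miR-483* has 21 purines among 22 bases. In the hairpins the mature arms are in capitals, which shows that each pair of members comes from a single precursor.
Mir675: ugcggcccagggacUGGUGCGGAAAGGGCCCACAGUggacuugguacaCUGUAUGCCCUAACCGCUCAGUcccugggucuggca
Mir483: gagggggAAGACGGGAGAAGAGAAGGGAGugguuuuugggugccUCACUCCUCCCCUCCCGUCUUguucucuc

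The arrays differed in brightness. The mean log2 signal of the 57 miRNAs above background on all arrays lay between 5.80 and 9.29 on P7 arrays and between 6.98 and 9.77 on P3 arrays. By slide it lay between 7.91 and 9.77 on slide 1, which held replicate 1 of the 8 groups, and between 5.80 and 8.65 on slide 2, which held replicate 2 and was scanned separately. On both slides P3 arrays were in row 1 and P7 arrays in row 2, and each column held 1 genotype and oxygen level, so that position on the slide and group cannot be told apart. Signals were divided by a factor per array that makes the mean of the 57 miRNAs equal, a floor of 2.82 (log2 1.497) was set, and log2 was taken. Of the listed miRNAs of fibroblasts and mesenchymal cells, 4 of 6 were above background on all arrays and none was below it on every array. The 5 listed epithelial miRNAs and liver miR-122 were above background on no array.

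Of the 4 members, 3 entered the tests, for which a miRNA had to be above background on each array of some group. MiR-483 was above background on 13 of 16 arrays, miR-675-3p on 8, miR-483* on 5 and miR-675-5p on 0. Signals of different miRNAs are not compared with each other, since their probes differ.

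**Figure D1:**
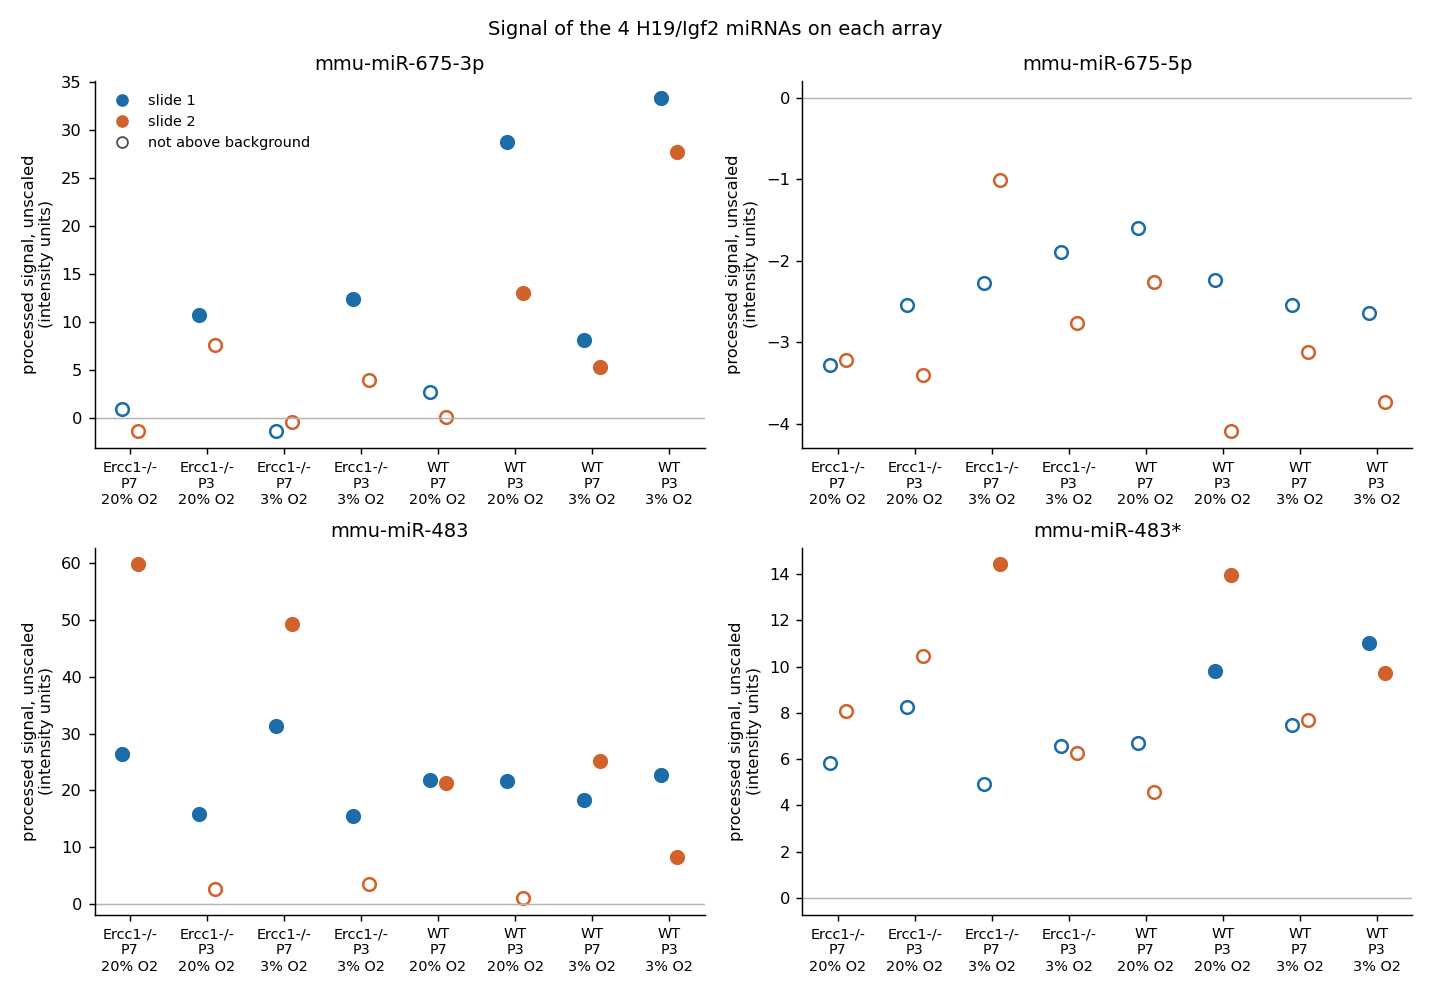
Unscaled processed signal (intensity units, y axes of different range) of the 4 miRNAs in the 8 groups on the x axis, 1 point per array, coloured by slide, with open points where the miRNA was not above background. All 8 P7 arrays of miR-483 are above background, only 2 of the 8 P7 arrays of miR-675-3p are, and miR-675-5p lies below 0 on every array.

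MiR-675-3p, cut from H19, was lower at P7 than at P3 in every pair of arrays matched for slide, genotype and oxygen level. At P7 in 20% O2, the Ercc1-/- arrays of slides 1 and 2 had unscaled signals of 0.917 and -1.40, against 10.74 and 7.58 at P3. At P7 in 3% O2, the Ercc1-/- arrays had -1.32 and -0.418, against 12.4 and 3.89 at P3. No P7 array of Ercc1-/- MEFs was above background, and of the P3 arrays the slide 1 array of each oxygen level was. WT arrays in 20% O2 had 2.67 and 0.0748 at P7, against 28.7 and 13.0 at P3. WT arrays in 3% O2 had 8.12 and 5.31 at P7, against 33.3 and 27.7 at P3. WT MEFs in 3% O2 were the only P7 group in which miR-675-3p was above background, on both arrays. In each of the 4 settings both P7 arrays were below both P3 arrays, as for 33.6% (Ercc1-/-, 20% O2), 44.3% (Ercc1-/-, 3% O2), 28.1% (WT, 20% O2) and 40.9% (WT, 3% O2) of the 235 miRNAs tested.

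On the scaled log2 scale, miR-675-3p averaged 1.78 at P7 and 3.33 at P3 over the 4 settings, a difference of -1.56 (SE 0.27, limma with Benjamini-Hochberg adjustment, adjusted p = 0.00379). Because 3 P7 groups were at the floor, the value is no bound, and it was -3.65 with the floor multiplied by 0.1 and -3.64 with the median over probes. The arrays of these 3 groups share the floor value, and this spread of 0 enters the SE of the fit. The SE and p of every miR-675-3p comparison may thus be too small. In this averaged comparison 54.9% of the miRNAs tested were called, and 32.3% as lower at P7. The median difference over all tested was -0.39, and -1.31 with no scaling and signals under 1 set at 1. The difference was -1.35 on slide 1 and -1.76 on slide 2. MiR-675-3p was lower at P7 in 8 of 8 pairs of arrays of 1 slide, genotype and oxygen level, by 0.476 to 3.59 on the log2 scale. In the Ercc1-/- pairs of slide 2 (-1.28 in 20% O2 and -0.476 in 3% O2) neither array was above background. Of all tested miRNAs, 17.9% were lower in every pair. In RNA from a whole culture, fewer cells that make a miRNA and less of it per cell cannot be told apart. With normexp background correction and an offset of 50, the difference was 0.31 (adjusted p = 0.378 by limma). Averaged over its probes, miR-675-3p had unscaled signals below this offset on every array. Probes A_54_P1793 and A_54_P1794 alone reached 56.3 and 55.7 at P3.

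By setting, the passage difference of miR-675-3p was called in WT MEFs in 20% O2. There it was -2.98 (SE 0.54, adjusted p = 0.0377 by limma), at least 1.79-fold lower at P7, since neither P7 array was above background. Of the tested miRNAs 1.28% were called in this comparison, all of them lower at P7. The call was lost without replicate 1 of WT P3 in 3% O2 (adjusted p = 0.0897), of Ercc1-/- P3 in 20% O2 (0.0729) and 3% O2 (0.0845), of WT P7 in 20% O2 (0.0594) and 3% O2 (0.0778) and of Ercc1-/- P7 in 3% O2 (0.0669). It was also lost without replicate 2 of WT P3 in 20% O2 (adjusted p = 0.354) and 3% O2 (0.0718) and of WT P7 in 20% O2 (0.138). The value lay between -3.58 and -2.36 in the 16 fits that left out an array. The call was also lost with no scaling (adjusted p = 1.00), with each of the other 4 scalings (adjusted p from 0.0604 to 0.198), with normexp (1.00), with the software's total gene signal (0.113), with only the 4 arrays of the comparison (0.599), and without the 3 arrays with the fewest miRNAs above background (0.136). Those 3 arrays, replicate 2 of Ercc1-/- P7, WT P7 and WT P3 in 20% O2, were left out together as an alternative chosen after seeing the data. In WT MEFs in 3% O2 the difference was -1.70 (SE 0.54, adjusted p = 0.545, 0% of miRNAs called, 13 at an unadjusted p under 0.05). In Ercc1-/- MEFs no P7 array was above background and the P3 signals were too close to it for a lower limit above 1, so that no fold is given (adjusted p = 0.227 in 20% O2, where 1.28% of miRNAs were called, and 0.390 in 3% O2, where 0% were, with 74 at an unadjusted p under 0.05). The passage difference in Ercc1-/- MEFs was not shown to differ from that in WT MEFs (difference 1.56, SE 0.54, adjusted p = 0.541, with 0% of miRNAs called and 11 at an unadjusted p under 0.05), and the difference was -0.45 with the floor multiplied by 0.1.

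On these arrays the unscaled signal of miR-675-3p was lower in Ercc1-/- than in WT MEFs. The methods give 2 cell lines for each sample, and the same lines may recur in all groups of a genotype. A difference between lines is then hard to tell from one between genotypes. The 8 Ercc1-/- arrays had unscaled signals from -1.40 to 12.4 with a median of 2.40, and the 8 WT arrays from 0.0748 to 33.3 with a median of 10.5. Of the arrays, 2 Ercc1-/- and 6 WT ones were above background. After scaling, the signal was lower in Ercc1-/- MEFs in 6 of 8 pairs of matched arrays and at the floor on both sides in the other 2, those at P7 in 20% O2, and 4.26% of tested miRNAs were lower in at least 6 pairs and higher in none. Before scaling it was lower in 8 of 8 pairs, as for 1.7% of tested miRNAs, though in the pairs at P7 in 20% O2 neither array was above background. At P3, where the signals were highest, the 4 Ercc1-/- arrays had 3.89 to 12.4 and the 4 WT arrays 13.0 to 33.3. How many tested miRNAs had such separate ranges over both oxygen levels was not counted. On the scaled scale, both Ercc1-/- arrays were below both WT arrays at P3 in each oxygen level. This held for 17.4% of tested miRNAs in 20% O2, and for 17.4% in 3% O2.

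Averaged over passages and oxygen levels, miR-675-3p was at 1.88 in Ercc1-/- MEFs and 3.22 in WT MEFs on the scaled log2 scale, a difference of -1.34 (SE 0.27, adjusted p = 0.0227 by limma). Only 1.7% of tested miRNAs were called in this comparison, and 1.28% as lower in Ercc1-/- MEFs. MiR-675-3p passed the filter for this test only through WT groups, those with both arrays above background (P3 in both oxygen levels and P7 in 3% O2), and with no filter, over 611 miRNAs, the adjusted p was 0.0139. The difference was -1.15 on slide 1 and -1.53 on slide 2. At P3 it was -2.08 in 20% O2 (SE 0.54, adjusted p = 0.201, slides -1.86 and -2.31; 0.851% of miRNAs called) and -2.16 in 3% O2 (SE 0.54, adjusted p = 0.154, slides -1.80 and -2.53; 0% called, 6 at an unadjusted p under 0.05). Without the 3 arrays with the fewest miRNAs above background, the difference in 3% O2 passed the threshold (-2.18, adjusted p = 0.0285). At P7 in 3% O2 the arrays did not overlap either, as for 16.6% of tested miRNAs (adjusted p = 0.988, 0% called, 7 at an unadjusted p under 0.05), and at P7 in 20% O2 neither genotype was above background. The averaged call was lost with a random block for cell line, assuming that a replicate number marks the line within a genotype (adjusted p = 0.122), and with each of 7 arrays left out in turn: replicate 1 of WT P3 in 3% O2 (adjusted p = 0.0615), of Ercc1-/- P3 in 20% O2 (0.104) and 3% O2 (0.0665), of WT P7 in 20% O2 (0.0557) and 3% O2 (0.0689) and of Ercc1-/- P7 in 3% O2 (0.0812), and replicate 2 of WT P3 in 3% O2 (0.0778). It was also lost with no scaling (adjusted p = 0.993), with scaling to all mouse miRNAs by their mean (0.0877) or 75th percentile (0.0565), with the software's total gene signal (0.910), with the unequal-variance test that the methods name (0.843) and with normexp (0.984). The difference was 0.0086 with normexp, and -2.35 with the floor multiplied by 0.1. The listed blood-cell miRNAs summed to a scaled signal of 2.03 to 37.0 in Ercc1-/- MEFs and 3.61 to 92.1 in WT MEFs, with miR-451 and miR-144 above background on no array, and their part in the result was not tested.

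**Figure D2:**
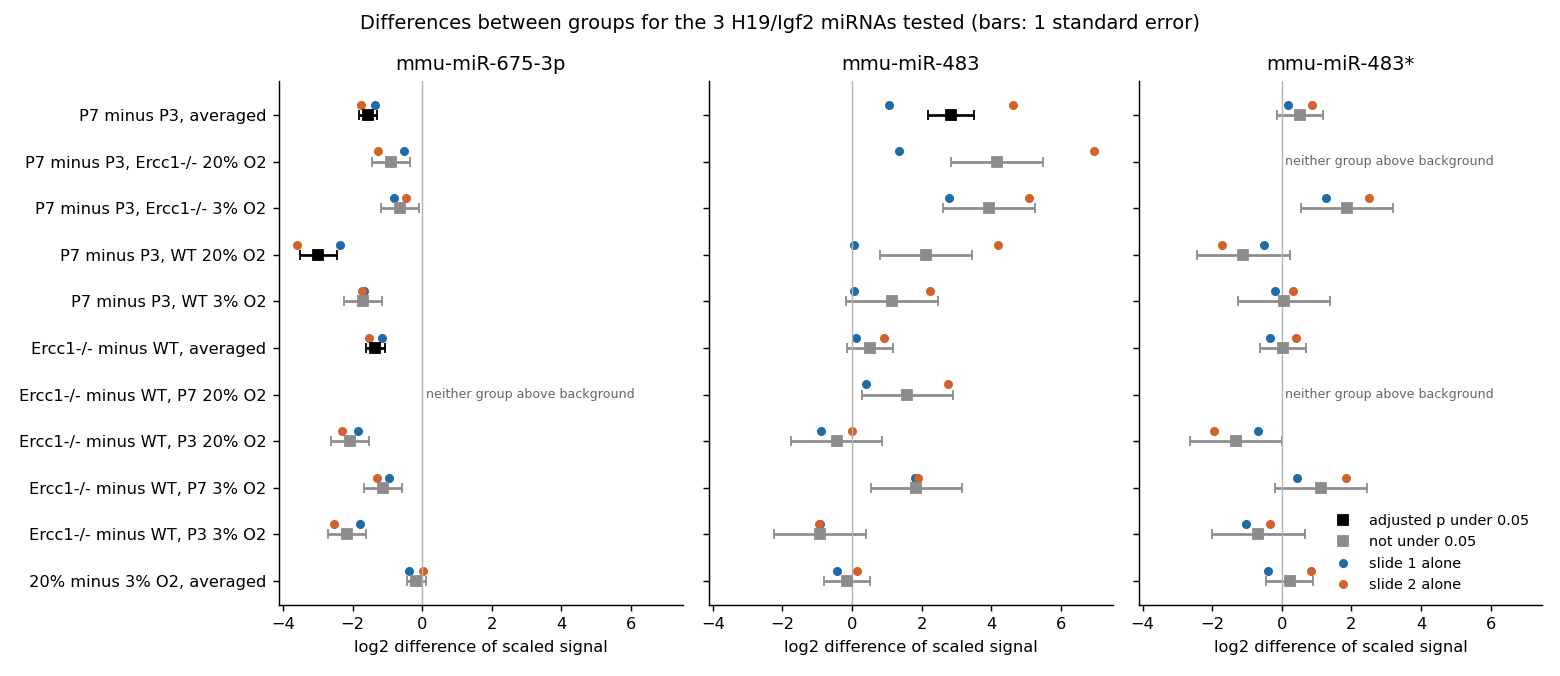
Log2 difference of scaled signal (x axis) for each comparison (rows) and each of the 3 miRNAs tested. Squares are limma estimates with bars of 1 standard error, black where the adjusted p was under 0.05, and small points are the same difference on slide 1 or slide 2 alone. MiR-675-3p was called as lower at P7 and in Ercc1-/- MEFs, and miR-483 as higher at P7, with 1.06 on slide 1 and 4.63 on slide 2.

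The ends of the design, P7 Ercc1-/- MEFs in 20% O2 and P3 WT MEFs in 3% O2, were also compared. MiR-675-3p had unscaled signals of 0.917 and -1.40 in P7 Ercc1-/- MEFs, against 33.3 and 27.7 in P3 WT MEFs, with no overlap, as for 29.8% of tested miRNAs. The scaled difference was -2.81 (SE 0.54, adjusted p = 0.0205 by limma, 2.55% of miRNAs called), at least 1.16-fold lower in P7 Ercc1-/- MEFs. Here too miR-675-3p passed the filter only through WT groups, among them P3 WT MEFs in 3% O2, the side where it was high. The call was lost without replicate 1 of WT P3 in 3% O2 (adjusted p = 0.134), replicate 2 of that group (0.251) or replicate 1 of Ercc1-/- P3 in 3% O2 (0.0519). It was also lost with no scaling (adjusted p = 0.408), with the total gene signal (0.186), with only the 4 arrays of the comparison (0.537) and with normexp, where the difference was 0.60 (0.413). MiR-483 differed by 3.03 in this comparison (SE 1.32, adjusted p = 0.161), with 0.37 on slide 1 and 5.69 on slide 2, and both P7 Ercc1-/- arrays were above both P3 WT arrays, as for 28.5% of tested miRNAs.

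MiR-675-5p, the other arm of the H19 hairpin, was not detected. Its unscaled signal was -3.28 to -1.01 on the 8 P7 arrays and -4.09 to -1.89 on the 8 P3 arrays. All 4 of its probes were below the detection rule on all 16 arrays, none of their spots was marked well above background, and it was not tested. The highest single spot, of 60.1 in Ercc1-/- MEFs at P7 in 3% O2 on slide 2, was marked as an outlier by the scanner software and left out.

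MiR-483, from the Igf2 intron, was higher at P7 than at P3 after scaling, and the size of the difference was not the same on both slides. At P7 in 20% O2, the Ercc1-/- arrays of slides 1 and 2 had unscaled signals of 26.4 and 59.8, against 15.8 and 2.56 at P3. At P7 in 3% O2, they had 31.3 and 49.3, against 15.6 and 3.53 at P3. In Ercc1-/- MEFs the P7 signal was thus higher on both slides before any scaling. WT arrays in 20% O2 had 21.8 and 21.2 at P7, against 21.6 and 1.06 at P3. WT arrays in 3% O2 had 18.4 and 25.1 at P7, against 22.7 and 8.35 at P3. On slide 1 the WT signal at P7 was close to that at P3 in 20% O2 and below it in 3% O2, and on slide 2 the P3 signals were low in all 4 settings, with 1 of the 4 P3 arrays above background.

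On the scaled log2 scale, miR-483 averaged 5.32 at P7 and 2.48 at P3, a difference of 2.84 (SE 0.66, adjusted p = 0.00793 by limma), and 22.6% of tested miRNAs were called as higher at P7. The difference was 1.06 on slide 1 and 4.63 on slide 2. Slide 1 minus slide 2 ran from -4.53 to -1.41 in the P7 groups and from 0.786 to 1.96 in the P3 groups. The fit takes the arrays as independent. Its SE and p thus leave out that these gaps were shared within a passage, and the p may be too small. MiR-483 was higher at P7 in 8 of 8 matched pairs after scaling, as were 11.1% of tested miRNAs, and in 7 of 8 before scaling. The pair differences ran from 0.0573 (WT in 20% O2, slide 1) to 6.96 (Ercc1-/- in 20% O2, slide 2). With no scaling the difference was 1.71 (adjusted p = 0.0556), and with normexp it was 0.83 (adjusted p = 0.131). Without the 3 arrays with the fewest miRNAs above background it was 1.85 (adjusted p = 0.0279).

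By setting, the passage difference of miR-483 was largest in Ercc1-/- MEFs, and none passed the threshold. It was 4.16 in 20% O2 (SE 1.32, adjusted p = 0.0990) and 3.94 in 3% O2 (SE 1.32, adjusted p = 0.0839) in Ercc1-/- MEFs, and 2.13 in 20% O2 (SE 1.32, adjusted p = 0.548) and 1.16 in 3% O2 (SE 1.32, adjusted p = 0.70) in WT MEFs, by limma. In 20% O2, 1.28% of miRNAs were called in either genotype, and in 3% O2, 0%. In each setting both P7 arrays were above both P3 arrays after scaling, as for 27.2% (Ercc1-/-, 20% O2), 32.3% (Ercc1-/-, 3% O2), 14.5% (WT, 20% O2) and 26% (WT, 3% O2) of tested miRNAs. Ercc1-/- minus WT, the passage difference differed by 2.41 (SE 1.32, adjusted p = 0.769), with 2.01 on slide 1 and 2.81 on slide 2. Leaving out replicate 1 of Ercc1-/- P7 in 20% O2 brought both Ercc1-/- differences past the threshold (6.42, adjusted p = 0.00255, in 20% O2 and 3.94, adjusted p = 0.0274, in 3% O2), and leaving out replicate 2 of that group did so in 3% O2 (4.37, adjusted p = 0.0258), as did leaving out the 3 arrays with the fewest miRNAs above background (4.06, adjusted p = 0.00924). The remaining P7 array in 20% O2 is then taken to vary like the other groups.

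Averaged over passages and oxygen levels, miR-483 was at 4.16 in Ercc1-/- MEFs and 3.64 in WT MEFs (difference 0.52, SE 0.66, adjusted p = 0.933). The sign of the genotype difference was opposite at the 2 passages: 1.59 in 20% O2 and 1.85 in 3% O2 at P7, and -0.44 in 20% O2 and -0.93 in 3% O2 at P3 (SE 1.32 each, adjusted p from 0.780 to 1.00). At P7 in 3% O2 the slides gave 1.80 and 1.90, with no overlap of the arrays, as for 14.9% of tested miRNAs, and at P3 in 3% O2 they gave -0.91 and -0.94. At P7 in 20% O2 0.426% of miRNAs were called. The 3 listed neural miRNAs, miR-124, miR-9 and miR-129-5p, summed to a scaled signal of 0 to 87.5 at P7 and 0 to 5.66 at P3. The sum was 3.64 to 87.5 in Ercc1-/- MEFs and 0 to 4.34 in WT MEFs. MiR-124 and miR-9 were above background on no array, so only miR-129-5p was detected on any. The muscle list summed to 2.38 to 28.3 at P7 and 0.579 to 6.06 at P3, and to 1.53 to 28.3 in Ercc1-/- MEFs and 0.579 to 7.61 in WT MEFs, with 4 of 5 members above background on no array. The list of placenta and embryonic stem cells summed to 8.81 to 117 at P7 and 8.03 to 74.6 at P3, with 3 of 5 members above background on no array. Their part in the result was not tested.

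**Figure D3:**
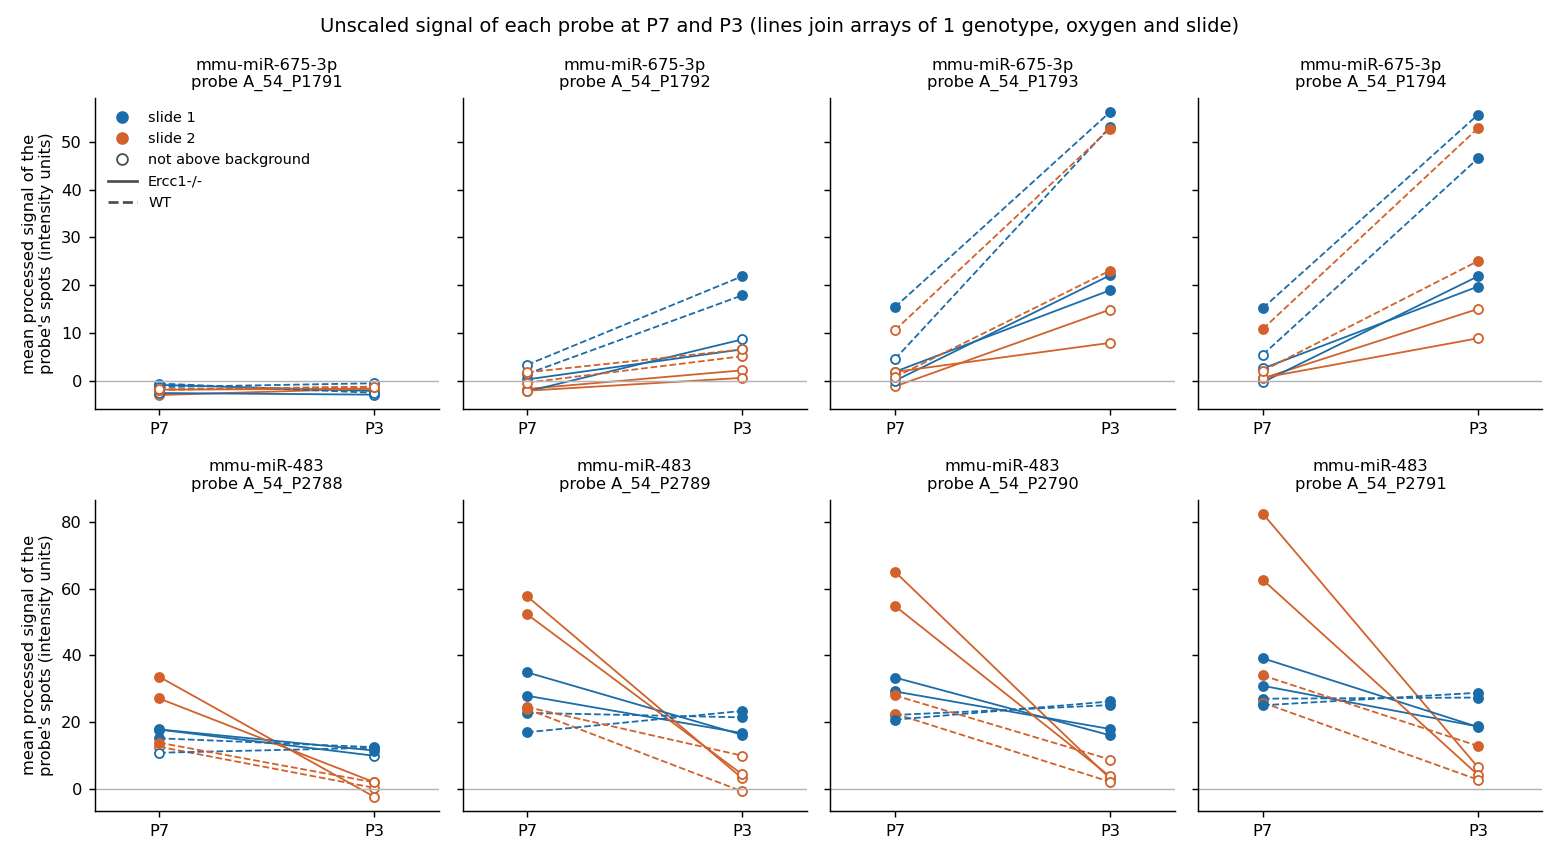
Mean unscaled processed signal of the spots of each probe (y axis, intensity units) at P7 and P3, for the 4 probes of miR-675-3p (top) and the 4 probes of miR-483 (bottom). Lines join arrays of 1 genotype, oxygen level and slide, solid for Ercc1-/- and dashed for WT, and open points were not above background. Probe A_54_P1791 stays near 0, probes A_54_P1793 and A_54_P1794 are lower at P7 in all 8 pairs, and the 4 miR-483 probes are higher at P7 in 6 or 7 of the 8 pairs.

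The probes of a member could be compared with each other within an array pair. MiR-675-3p has 4 probes of 5 spots each. Probe A_54_P1791 was above background on 0 arrays, with signals from -3.05 to -0.574, and A_54_P1792 on 2 arrays, both at P3. A_54_P1793 and A_54_P1794 were above background on 7 and 8 arrays. Their signals reached 15.4 and 15.2 at P7, and 56.3 and 55.7 at P3, and each was lower at P7 in 8 of 8 pairs, before and after scaling. The miR-675-3p result therefore rests on these 2 probes, and with either alone the averaged passage difference was -2.11 (adjusted p = 0.00119 for A_54_P1793 and 0.00122 for A_54_P1794). All 4 probes of miR-483 were above background on at least 8 arrays, and each alone gave a passage difference between 2.65 and 2.80. After scaling, the signal was higher at P7 in 8 of 8 pairs for A_54_P2788 and A_54_P2791 and in 7 of 8 for A_54_P2789 and A_54_P2790. Before scaling it was higher in 7 of 8 pairs for A_54_P2788 and A_54_P2789 and in 6 of 8 for A_54_P2790 and A_54_P2791.

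MiR-483*, the other arm of the Igf2 hairpin, stayed close to background and passed the threshold in no comparison. Its unscaled signals were 4.58 to 14.4 on P7 arrays and 6.28 to 14.0 on P3 arrays. It was above background on both arrays of WT P3 in 20% O2 (9.80 and 14.0) and in 3% O2 (11.04 and 9.72) and on 1 array of Ercc1-/- P7 in 3% O2 (14.4, against 4.93 on the other), and it entered the tests through the 2 WT P3 groups. Before scaling it was lower at P7 in 7 of 8 pairs, and after scaling it was higher in 5, among them the 4 Ercc1-/- pairs, and lower in 3. A difference between the arms was not tested. The averaged scaled passage difference was 0.51 (SE 0.66, adjusted p = 0.494 by limma), and -0.39 with no scaling. Between Ercc1-/- and WT MEFs it differed by 0.04 (SE 0.66, adjusted p = 0.993). Its folds, calculated as "at least" values, went both ways, and none passed the threshold by limma. At P7 against P3, it was 1.08-fold lower in WT MEFs in 20% O2 (adjusted p = 0.620). It came out 2.37-fold higher at P7 in Ercc1-/- MEFs in 3% O2 (adjusted p = 0.304). That value is no lower limit, because 1 of the 2 P7 arrays was not above background. Its unscaled signal at P7 was lower on slide 1 (4.93 against 6.55) and higher on slide 2 (14.4 against 6.28). In Ercc1-/- against WT MEFs at P3, miR-483* was 1.71-fold lower in 20% O2 and 1.04-fold lower in 3% O2 (adjusted p = 1.00 each). At P7 in 3% O2 it came out 1.47-fold higher in Ercc1-/- MEFs (adjusted p = 0.988), which is no lower limit for the same reason. These folds set group means against each other. The arrays overlapped in all these comparisons but the 2.37-fold one, where 32.3% of tested miRNAs were higher without overlap.

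Oxygen made no difference past the threshold for any of the 3 miRNAs tested. Averaged over genotype and passage, 20% minus 3% O2 was -0.17 (SE 0.27) for miR-675-3p, -0.15 (SE 0.66) for miR-483 and 0.22 (SE 0.66) for miR-483*, each with an adjusted p of 1.00 by limma, where 0.851% of miRNAs were called. For all 3 the value was below 0 on slide 1 and above 0 on slide 2. In WT MEFs at P7, miR-675-3p was above background on 0 of 2 arrays in 20% O2 and 2 of 2 in 3% O2 (difference -1.12, SE 0.54, adjusted p = 1.00, with 0% of miRNAs called and 4 at an unadjusted p under 0.05). The passage differences in 20% O2 and 3% O2 were not shown to differ (adjusted p = 0.996 for each of the 3 miRNAs, 0% called, 2 at an unadjusted p under 0.05).

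A scaling factor per array cancels when miR-483 is set against miR-675-3p on the same array, except where either is at the floor. Log2 miR-483 minus log2 miR-675-3p ran from 1.18 to 6.96 on the 8 P7 arrays, with a median of 3.18, and from -3.59 to 0.557 on the 8 P3 arrays, with a median of -0.484. The P7 and P3 arrays did not overlap, and other pairs of miRNAs were not examined. MiR-675-3p was lower and miR-483 higher at P7 in every matched pair, so a rise in each pair was set in advance. Of tested miRNAs, 17.9% were lower and 11.1% higher in every pair. With normexp the mean shift was 0.52, against 4.40 in the main setting. The absolute level of the difference has no meaning, because the probes differ. MiR-675-3p was at the floor on 6 of the 8 P7 arrays and miR-483 on 2 of the 8 P3 arrays, so that the size of the shift between passages depends on the floor in all settings but WT MEFs in 3% O2. In P7 WT MEFs in 3% O2, where both miRNAs were above background on both slides, it was 1.18 and 2.24, against -0.556 and -1.73 in P3 WT MEFs in 3% O2, where both were too. The P7 minus P3 shift was 1.73 on slide 1 and 3.97 on slide 2 in this setting. By pairs, it was 1.88 and 8.24 in Ercc1-/- MEFs in 20% O2, 3.60 and 5.57 in Ercc1-/- MEFs in 3% O2, and 2.43 and 7.78 in WT MEFs in 20% O2, with miR-675-3p at the floor at P7 in each and miR-483 at the floor at P3 in the slide 2 pairs in 20% O2. These sizes are descriptions and were not tested.

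**Figure D4:**
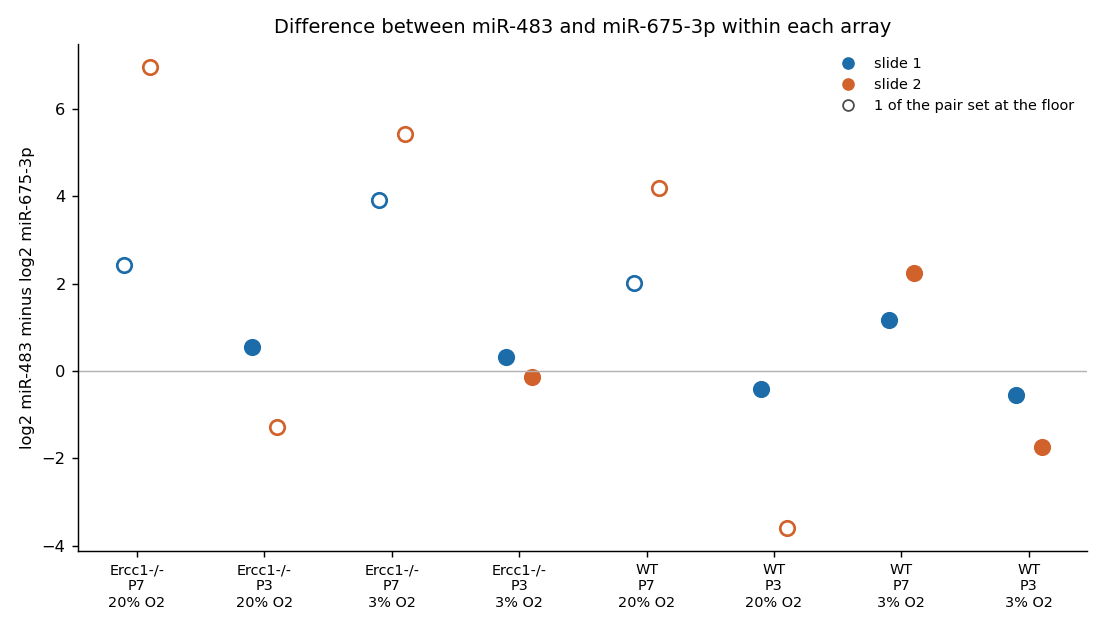
Log2 miR-483 minus log2 miR-675-3p within each array (y axis) in the 8 groups (x axis), coloured by slide, with open points where either miRNA was set at the floor. Every P7 array lies at 1.18 or above and every P3 array at 0.557 or below.

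Of the other 234 tested miRNAs, those with group means most like a member's were found by Pearson's r over the 8 groups, which share slides and scaling. Nearest to miR-483 were miR-705 (r = 0.993), miR-671-5p (r = 0.992) and miR-1892 (r = 0.992), and over 16 arrays centred by slide their r was 0.990, 0.991 and 0.985. MiR-671-5p averaged 6.45 in Ercc1-/- MEFs at P7 in 20% O2 and 2.29 at P3. Nearest to miR-675-3p were miR-33 (r = 0.848), miR-142-3p, a miRNA of blood cells (r = 0.844), and miR-218 (r = 0.838), with 0.610, 0.682 and 0.808 over the 16 arrays. MiR-33 was above background on both arrays only in WT MEFs at P3 in 3% O2, where its highest group mean was 2.32. Like miR-675-3p, it was on the floor in Ercc1-/- MEFs at P7 and in WT MEFs at P7 in 20% O2. Its r thus rests in part on shared floor values. MiR-218 was on the floor in Ercc1-/- MEFs at P7 in 3% O2 and averaged 5.86 in WT MEFs at P3 in 3% O2. Nearest to miR-483* were miR-149 (r = 0.942), miR-296-5p of the imprinted Gnas locus (r = 0.811) and miR-324-3p (r = 0.811). Between members r was -0.599 for miR-675-3p with miR-483, 0.624 for miR-483 with miR-483* and 0.0239 for miR-675-3p with miR-483*.

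MiRNAs of other imprinted loci and of let-7 were counted beside the members. The Dlk1-Dio3 domain, the large imprinted miRNA cluster expressed from the maternal copy, had 40 of 70 listed miRNAs tested, and at P7 5 were called higher and 14 lower than at P3 (median difference -0.54, against -0.39 for all tested, and 0.31 with normexp, where 36 of 40 were higher). Of all tested miRNAs, 22.6% were called higher and 32.3% lower. Of the Mest and Gnas loci 1 miRNA each was tested and neither was called. Let-7 miRNAs, for which H19 RNA is known to hold binding sites, were lower at P7 for 9 of 9 tested and called for 8, where 32.3% of all tested miRNAs were called lower (median -2.35, against -0.39 for all tested), and lower for 9 of 9 under each scaling tried and normexp. Let-7e averaged 6.97 at P7 and 9.005 at P3 (difference -2.03, SE 0.36, adjusted p = 0.00379 by limma), and let-7f 7.51 at P7 and 10.4 at P3 (difference -2.89, SE 0.58, adjusted p = 0.00639).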

How the data were processed

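RNA of 16 MEF cultures was hybridised to 1-colour Agilent mouse miRNA arrays. Per the file headers, the authors extracted the deposited spot intensities (processed signal, background subtracted, not normalised between arrays) with Feature Extraction 10.7.1.1. The files hold 13715 spots per array and flags for spots well above background. No genome or aligner is involved.

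Spots without outlier marks were averaged per probe and probes per miRNA. A probe was above background where a share of at least 0.5 of its spots was flagged so, and a miRNA where any probe was. Signals were divided by a factor per array from the mean log2 signal of the 57 miRNAs above background on all arrays (117 to 257 were so on single arrays), set to at least a floor of 2.82 (each array's lowest scaled signal that was above background, as a median over arrays), and log2-transformed. The 235 miRNAs above background on each array of some group were fitted with limma 3.58.1 (R 4.3.3), 8 group means in 1 model without a block (8 residual and 3.58 prior degrees of freedom), with Benjamini-Hochberg adjustment at 0.05 over all 235. "At least" folds set the bright group's mean against the dim group's mean of, per array, the higher of the lowest signal above background and the miRNA's own. Where an array of the bright group was not above background, the fold is no lower limit. The precision is limited by 2 arrays per group.

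Slide differences correlated between groups of 1 passage (median r 0.81 among P7 and 0.61 among P3 groups) and not between passages (median 0.03, from -0.34 to 0.37), so the replicate numbers were not taken to pair all samples, and values within each slide are given. The fit does not model these shared differences, so its p-values for the averaged passage comparison may be too small.

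The members and the lists were chosen with earlier results of these data known. Named are the members, their probes, the 3 miRNAs most like each tested member, and the 2 of the other lists with the smallest p. Alternatives were 5 other scalings, normexp (offset 50, on the median signal; the mean signal was not used here), total gene signal, the deposited series table (linear intensities summed over probes), the median over probes, single probes, a lower floor, other filters, blocks, fits on only the arrays compared, the methods' t-test (unequal variance, at least 2-fold) and leaving out arrays. The fit was tested on simulated data with independent noise on each array. These had no floor and no slide differences shared within a passage, so they cannot show whether the passage calls hold here.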

Additional observations from a re-analysis of the deposited data

How the results depend on the processing

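The averaged passage difference of miR-675-3p kept its direction in 16 of 17 alternatives and in 16 of 16 fits without 1 array (-1.70 to -1.47), and that of miR-483 kept its direction in all alternatives run and in all fits without 1 array (2.28 to 3.41). Among the alternatives, dropping the filter, the blocks and the methods' t-test use the same group means. The direction could not change in these, so they add nothing to the count. Signals near background limit the rest: differences that involve the floor have no firm size, and no cause of the changes below was tested.

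With no scaling, the genotype difference of miR-675-3p was -1.05 and the passage difference of miR-483 1.71, both no longer past the threshold, and miR-483* differed by -0.39 for passage, -0.14 for genotype and -0.0091 for oxygen. The counts of miRNAs called were then 44 for passage, 0 for genotype by limma (5 at an unadjusted p under 0.05) and 1 for oxygen. Scaling to the mean of all mouse miRNAs gave -1.21 for miR-675-3p by genotype, -0.11 for miR-483* by genotype and -0.025 by oxygen, with 1 call for oxygen. Their 75th percentile gave -1.21 for miR-675-3p by genotype, and quantile normalization -0.041 for miR-483* by genotype.

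With normexp, miR-675-3p differed by 0.31 for passage, 0.068 in WT MEFs in 3% O2, 0.0086 for genotype, 0.20 for oxygen and 0.60 between P7 Ercc1-/- MEFs in 20% O2 and P3 WT MEFs in 3% O2. MiR-483 differed by 0.83 for passage and 0.14 for oxygen, the within-array difference shifted by 0.52, and 35, 0 (4 unadjusted) and 1 miRNAs were called for passage, genotype and oxygen. With the total gene signal, miR-675-3p differed by -1.27 for genotype and its passage difference by -0.99 between genotypes, miR-483 by -0.034 for genotype, and miR-483* by -1.10 for passage and -0.93 for genotype, with 69, 0 (7 unadjusted) and 1 calls. The deposited series table gave -0.023 for miR-483* by genotype. The median over probes gave -0.50 and the lower floor -0.45 for the passage difference of miR-675-3p between genotypes, with 1 oxygen call each, and within-array shifts of 6.47 and 6.53 (4.40 in the main setting). For miR-483 by oxygen, probe A_54_P2788 alone gave 0.11 and A_54_P2791 alone 0.0044, and for miR-483* by genotype, A_54_P3592 alone gave -0.23.

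Without a filter 55, 8 and 1 miRNAs were called for passage, genotype and oxygen, and with the 57 always above background 35, 2 and 1. With the replicate block, which is also the slide, 7 miRNAs were called for genotype, and miR-675-3p (adjusted p = 0.0115 for genotype and 0.00146 for passage) and miR-483 (0.00461 for passage) stayed called. This block leaves every difference unchanged, because each slide held 1 array of each group. It cannot take up slide differences that change with passage, so no conclusion on the passage calls is drawn from it. The random block for cell line (-1.34, adjusted p = 0.122) and the methods' t-test after Benjamini-Hochberg (-1.34, adjusted p = 0.843, 1 call for genotype and 1 for oxygen) lost the genotype call of miR-675-3p. At the methods' own threshold, an unadjusted p under 0.05 and at least 2-fold, that test called 125 for passage and 8 for genotype. After Benjamini-Hochberg at 0.05, with no fold threshold, it called 139 and 1.

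Leaving out the 3 arrays with the fewest miRNAs above background, chosen after seeing the data, brought miR-675-3p by genotype at P3 in 3% O2 past the threshold (-2.18, adjusted p = 0.0285), and gave -0.060 for miR-483 by genotype, -0.89 for miR-483* by oxygen and 14 calls for genotype. Without 1 array, the genotype difference was -1.49 to -1.11 for miR-675-3p, -0.072 to 1.09 for miR-483 and -0.47 to 0.52 for miR-483*. The oxygen difference was -0.82 to 0.42 for miR-483 and -0.36 to 0.70 for miR-483*. The counts called ran from 92 to 204 for passage, 3 to 27 for genotype and 1 to 11 for oxygen, each highest without replicate 1 of Ercc1-/- P7 in 20% O2.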
